A study of Mus musculus with 8 samples.

Results

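The imprinted genes outside the Igf2 locus were chosen by name, as rows of the authors' deposited table whose gene name was 1 of 18 well-known imprinted genes, 12 of them expressed from the paternal and 6 from the maternal allele. Of these 18, 9 were present among the 3624 genes of the table. The study compared astrocytes cultured from neonatal retina and optic nerve, taken at postnatal day 1 to 3. One group of 4 samples came from C57BL/6 wild-type mice and the other group of 4 from Spp1-/- mice of the strain B6.129S6(Cg)-Spp1tm1Blh/J, which lack osteopontin, a secreted matrix phosphoprotein. All cultures were grown in DMEM/F12 with 10% fetal bovine serum, and total RNA was sequenced. The table holds 1 comparison and 0 columns of per-sample values, so the values below are the authors' fold changes with their standard errors, and the depth of each library is unknown. The deleted gene Spp1 had a log2 fold change of -5.90 (standard error 0.11) in the authors' deposited table, and that sign fixed the direction of all values. Whether samples of 1 genotype were grown as separate cultures is not stated, and the p-values may therefore rest on technical spread alone.

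Imprinted genes are transcribed mainly from the allele inherited from a single parent, through DNA methylation marks laid down in the egg or sperm. They lie in clusters that each answer to an imprinting control region, and many act on fetal growth, stem cell quiescence and metabolism. Paternally expressed genes are often described as growth-promoting and maternally expressed genes as growth-limiting, with many exceptions. The data here give the total level of each transcript and do not separate the alleles.

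Among the 9 listed genes, 6 of the 8 paternally expressed ones were lower in the knockout and the single maternally expressed one was higher. The 8 came from 12 paternally expressed genes and comprised 6 lower (Mest, Peg10, Dlk1, Peg12, Zdbf2 and Magel2) and 2 higher (Nnat and Impact), with a median log2 fold change of -1.57 in the authors' deposited table. Of the 6 maternally expressed genes only Cdkn1c was listed, and it was higher, with a log2 fold change of 2.42 in the authors' deposited table. Sgce, Peg3, Plagl1 and Ndn among the paternally expressed genes, and Meg3, Rian, Zim1, Grb10 and Phlda2 among the maternally expressed ones, were absent. Listed genes reach an adjusted p-value of 0.0499 at most, and none lies nearer to 0 than 0.58 on the log2 scale. A gene can be absent for missing one of these limits or for not being tested, and an absent gene was not taken to be equal between genotypes. About 16644 genes were tested by the authors, worked out from their p-values, and the table lists 21.8% of these, 12% as higher and 9.81% as lower. Beside that background, 50% of the 18 imprinted genes were listed, 16.7% as higher and 33.3% as lower. For paternally expressed genes the shares were 16.7% higher and 50% lower. For maternally expressed genes they were 16.7% higher and 0% lower, and listing 1 of 6 is near the background. The 18 genes and the 16 lists described below were chosen with earlier results of these data known. Their shares therefore cannot be weighed against this background. The difference between the paternal and the maternal genes was not tested, and 6 maternal genes are few.

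Sequences are shown first for Mest, the member with the firmest value, and for promoters that do or do not hold a motif tied to imprinting. Mest carries a microRNA precursor in an intron, and its mature products lie on the plus strand at chr6:30741314-30741336 and chr6:30741354-30741375 (GRCm38.p6, from RefSeq). The capitals mark the seed, bases 2 to 8. The level of these small RNAs was not measured.
mmu-miR-335-5p: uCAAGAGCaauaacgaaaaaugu
mmu-miR-335-3p: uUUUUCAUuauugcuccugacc

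Promoter windows of 300 bases, 250 before and 50 after each annotated start, were available from RefSeq (GRCm38.p6) for 14 of the 18 genes, 6 of them listed. They are shown because imprinted promoters are methylated on 1 allele, and the hexamer TGCCGC, searched on both strands as TGCCGC or GCGGCA with overlaps counted, is the core of the motif that the imprint-protecting zinc finger protein Zfp57 binds when methylated. Capitals mark each match. The Mest window lies at chr6:30737800-30738099 on the plus strand and holds 2 matches, a Zdbf2 window at chr1:63200108-63200407 on the plus strand holds 3, and the Nnat window at chr2:157559828-157560127 on the plus strand holds 1. This Zdbf2 window belongs to a far upstream start of RefSeq, outside the GENCODE interval of the gene given further on, and the window at the GENCODE start, chr1:63273019-63273318, holds 0. The Magel2 window, at chr7:62376729-62377028 on the plus strand, holds 0 and is shown for contrast.
Mest promoter: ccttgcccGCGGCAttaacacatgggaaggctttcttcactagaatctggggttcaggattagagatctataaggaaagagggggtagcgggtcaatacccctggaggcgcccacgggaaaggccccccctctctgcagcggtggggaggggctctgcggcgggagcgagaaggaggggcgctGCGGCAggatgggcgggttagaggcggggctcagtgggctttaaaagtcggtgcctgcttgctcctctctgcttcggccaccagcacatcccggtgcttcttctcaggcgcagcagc
Zdbf2 upstream promoter: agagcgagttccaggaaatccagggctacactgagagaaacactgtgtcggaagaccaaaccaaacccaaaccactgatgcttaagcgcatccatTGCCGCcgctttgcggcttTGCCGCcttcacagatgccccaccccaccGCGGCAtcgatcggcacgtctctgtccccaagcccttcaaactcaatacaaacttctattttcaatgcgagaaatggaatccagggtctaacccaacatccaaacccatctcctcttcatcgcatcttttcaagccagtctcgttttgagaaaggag
Nnat promoter: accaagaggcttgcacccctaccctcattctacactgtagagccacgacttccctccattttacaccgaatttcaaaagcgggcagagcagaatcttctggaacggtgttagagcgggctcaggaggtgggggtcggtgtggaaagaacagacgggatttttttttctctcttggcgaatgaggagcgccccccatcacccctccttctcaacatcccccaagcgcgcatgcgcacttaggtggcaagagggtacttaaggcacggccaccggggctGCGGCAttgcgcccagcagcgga
Magel2 promoter: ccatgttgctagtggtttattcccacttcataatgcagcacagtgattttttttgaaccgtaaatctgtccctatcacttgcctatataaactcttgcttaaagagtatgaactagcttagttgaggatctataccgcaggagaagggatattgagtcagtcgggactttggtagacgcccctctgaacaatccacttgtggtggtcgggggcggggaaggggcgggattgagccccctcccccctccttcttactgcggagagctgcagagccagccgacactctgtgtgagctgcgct

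At least 1 match was found in a promoter of 3 of the 6 listed genes (Mest, Zdbf2 and Nnat) and of 7 of all 14 genes with a window, or 50% of each, against 13.1% of 27025 genes in the whole promoter table. The windows of Dlk1, Magel2 and Peg12 and a second window each of Mest and Zdbf2 held none of these letters. The genes with matches included Mest and Zdbf2, which were lower, and Nnat, which was higher, so the match did not go with a single direction among these 3. Windows of the 14 genes were also richer in CpG, with a median of 13 CpG dinucleotides per window against 7 over all 32851 windows, and the part of CpG content in the share of matches was not tested. The octamer GGGGCCCC, its own reverse complement and a sequence bound by the imprinted zinc finger factor Plagl1, was found in 1 of 14 genes (Peg3) and 0 of the 6 listed, against 1.25% of all genes. A match is a string of letters and not a site shown to be bound or methylated in these cells.

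Mest (ENSMUSG00000051855.15, chr6:30723547-30748465, plus strand, GRCm38) showed the firmest change. It encodes a protein of the endoplasmic reticulum with an alpha/beta-hydrolase fold that is abundant in embryonic mesoderm and enlarging fat tissue. Its implied mean normalized count, worked out from the overall mean and the fold change of the authors' deposited table with groups taken as equal in size, came to 5778 for wild type against 667 for the knockout. The log2 fold change in the authors' deposited table was -3.11 with a standard error of 0.17 (adjusted p = 4.25e-75), an 8.66-fold lower level (95% interval 6.90 to 10.9). By absolute Wald statistic, the fold change divided by its standard error, Mest ranked 30 of all 3624 genes. The authors' deposited table holds 434 lower genes whose mean normalized count reaches 1000, and among these its fall ranked 4. Of the exon bases of Mest, 23.1% are shared with Copg2 on the opposite strand, a coat protein gene that is absent from the table, and since the sources used here do not say whether counting used strand, reads from that stretch cannot be told apart.

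**Figure D1:**
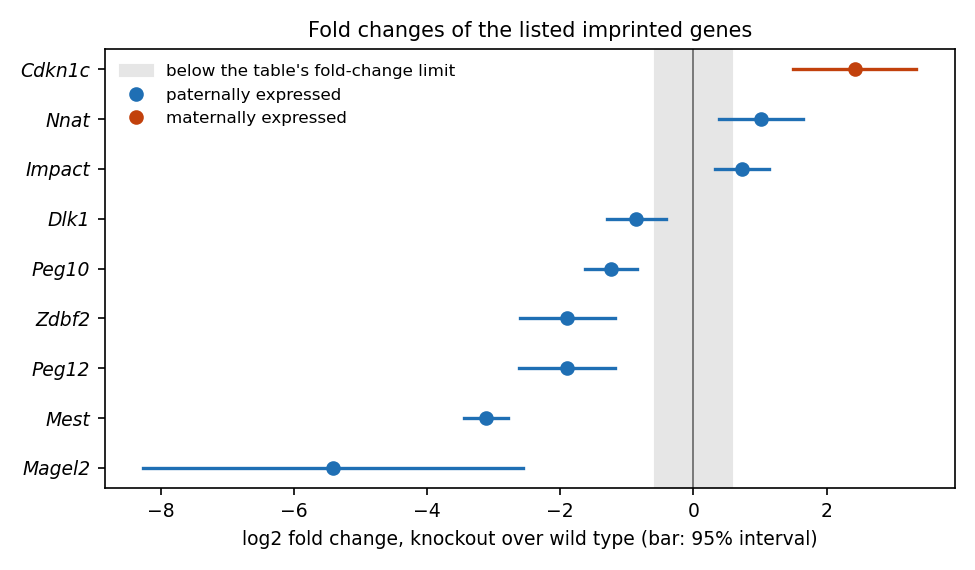
Log2 fold change of knockout over wild type (horizontal axis) for the 9 listed imprinted genes (vertical axis), as given in the authors' deposited table. Points are fold changes, bars are 95% intervals from the deposited standard errors, blue marks paternally and orange maternally expressed genes, and the grey band marks absolute values below 0.58. A reader should see 6 blue genes to the left of 0, from -5.41 to -0.86, and Cdkn1c at 2.42 on the right.

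Peg10 and Zdbf2 were also lower. Peg10 (chr6:4747306-4760517, plus strand) is a gene derived from the gag and pol parts of a retrotransposon that is needed for the placenta. Its implied means were 2556 in wild type and 1081 in the knockout, and its log2 fold change in the authors' deposited table was -1.24 (standard error 0.20, adjusted p = 8.83e-09), a 2.36-fold lower level (1.80 to 3.10). Sgce, which encodes epsilon-sarcoglycan, starts 99 bases from Peg10 on the opposite strand and is likewise paternally expressed, but was absent from the table. Zdbf2 (chr1:63273265-63314576, plus strand), a zinc finger gene active in the embryo and brain, had implied means of 148 and 39.9. The authors' deposited table gave Zdbf2 a log2 fold change of -1.89 (standard error 0.37, adjusted p = 2.39e-06), a 3.72-fold lower level (2.26 to 6.10).

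Dlk1 showed the smallest fall among the 6 lower members. It encodes a transmembrane protein with EGF-like repeats, also called preadipocyte factor, which is related to the Notch ligands and is known from fetal tissues, adipocyte precursors and neural stem cell niches. Dlk1 (chr12:109452823-109463336, plus strand) had implied means of 557 in wild type and 307 in the knockout. Its log2 fold change in the authors' deposited table was -0.86 (standard error 0.23, adjusted p = 9.63e-04), a 1.81-fold lower level (1.33 to 2.47), and the interval reaches past the limit of the table, to -0.42 on the log2 scale. Meg3, the maternally expressed long noncoding RNA whose start lies 88.2 kb away in the same cluster, and Rian, another, were absent.

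In the cluster that corresponds to the human Prader-Willi region, every listed paternally expressed gene was lower. Peg12 (chr7:62461871-62464510, minus strand), also called Frat3 and related to the Frat proteins that bind the kinase GSK3 of the Wnt pathway, had implied means of 189 and 50.6. The authors' deposited table gave Peg12 a log2 fold change of -1.90 (standard error 0.37, adjusted p = 2.78e-06), a 3.73-fold lower level (2.26 to 6.16). Magel2 (chr7:62377010-62381640, plus strand), a MAGE family protein that acts with a ubiquitin ligase in endosomal sorting, had the largest fitted fall, -5.41 on the log2 scale (standard error 1.45, adjusted p = 0.00127), in the authors' deposited table. Magel2 was barely detected: its implied means were 8.44 for wild type and 0.199 for the knockout, or 0.796 normalized counts summed over the 4 knockout samples. The size of that fall therefore depends on counts near 0, and its 95% interval ran from 5.89-fold to 306-fold lower. Mkrn3, a ring finger protein gene, fell by 1.13 (standard error 0.44, adjusted p = 0.0358), and Snrpn, which encodes a spliceosomal protein, fell by 0.60 (0.15, adjusted p = 6.33e-04) in the authors' deposited table. Of 6 paternally expressed genes of this cluster, 4 (66.7%) were listed and all 4 were lower, beside 9.81% lower of all genes tested. The set was gathered after the values were seen, so its share cannot be weighed against that background. Ndn, a MAGE family gene whose start is 30.4 kb from that of Magel2, and Snurf were absent.

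The 2 higher paternally expressed genes had smaller fitted changes in size than each lower one except Dlk1 (-0.86 on the log2 scale). Nnat (chr2:157560078-157562522, plus strand) encodes neuronatin, a small proteolipid of the endoplasmic reticulum in developing brain and endocrine cells. Its implied means were 198 in wild type and 402 in the knockout, and its log2 fold change in the authors' deposited table was 1.02 (standard error 0.32, adjusted p = 0.00721), a 2.03-fold higher level (1.31 to 3.15). Impact (chr18:12955852-12992950, plus strand) encodes a protein that restrains the amino acid stress kinase GCN2. Impact had implied means of 1662 and 2752 and a log2 fold change of 0.73 (standard error 0.21, adjusted p = 0.00284) in the authors' deposited table, a 1.66-fold higher level (1.25 to 2.20). Both lower interval ends, 0.39 for Nnat and 0.32 for Impact on the log2 scale, lay under the table's limit, and at an adjusted p-value under 0.001 neither was retained.

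Cdkn1c, the maternally expressed member, was higher. It encodes p57Kip2, an inhibitor of cyclin-dependent kinases that holds cells in the G1 phase and limits fetal growth. Cdkn1c (ENSMUSG00000037664.13, chr7:143458339-143461050, minus strand) had implied means of 52.7 in wild type and 282 in the knockout. The authors' deposited table gave it a log2 fold change of 2.42 (standard error 0.47, adjusted p = 2.87e-06), a 5.36-fold higher level (2.83 to 10.2). An annotated antisense transcript, Gm44732, shares 30.7% of its exon bases and is absent from the table, with the same limit on strand as for Mest.

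**Figure D2:**
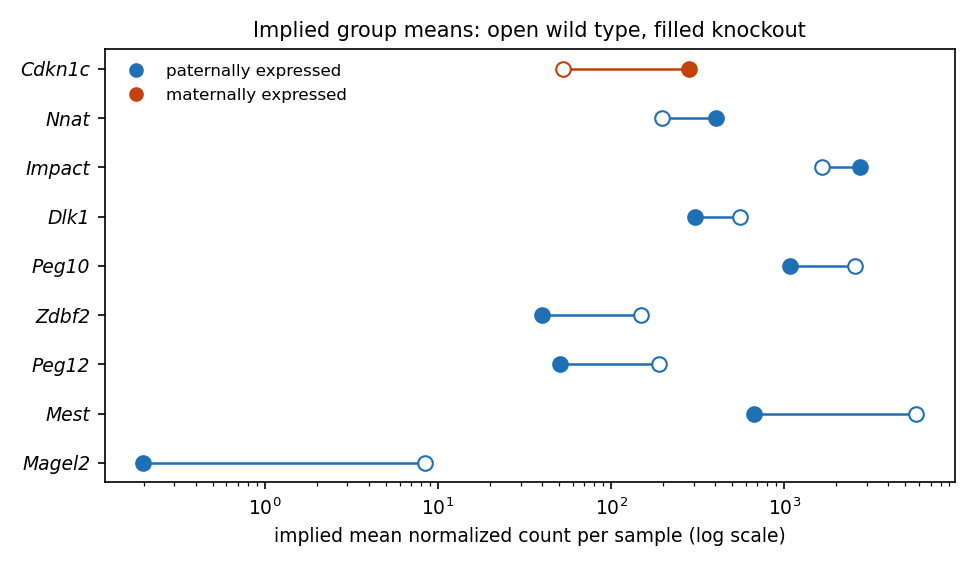
Implied mean normalized count per sample (horizontal axis, log scale) in wild type (open circles) and knockout (filled circles) for the 9 listed imprinted genes (vertical axis), worked out from the authors' deposited table. Mest spans 5778 to 667 and Cdkn1c 52.7 to 282, while Magel2 lies at 8.44 and 0.199, far under the rest.

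In order of fold change, from Magel2 through Mest, Peg12, Zdbf2, Peg10, Dlk1, Impact and Nnat to Cdkn1c, 6 of the 8 neighbouring pairs had overlapping 95% intervals. The intervals did not overlap between Mest and Peg12, which differed by 1.21 on the log2 scale, or between Dlk1 and Impact, which lie on either side of the excluded band around 0. Peg12 and Zdbf2 differed by 0.0066 on the log2 scale and so had nearly equal fold changes.

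Compared per kilobase of exon, the ranking of the 9 listed imprinted transcripts differed between the genotypes. The 9 absent members have no level here and could stand anywhere in such an order. In wild type Mest stood first with an implied mean of 1465 normalized counts per kb, followed by Peg10 with 383, Impact with 324, Nnat with 108 and Dlk1 with 98.5 per kb. In the knockout Impact stood first with 537 per kb, ahead of Nnat with 220, Mest with 169, Peg10 with 162 and Cdkn1c with 138 (levels per kb). Cdkn1c was at 25.8 per kb in wild type, below Peg12 at 71.6. Zdbf2 went from 11.7 to 3.15 per kb and Magel2 from 1.82 to 0.0429 per kb. These levels carry no interval and use the union of all annotated exons as the length, which overstates the length of a gene whose main transcript is short.

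**Figure D3:**
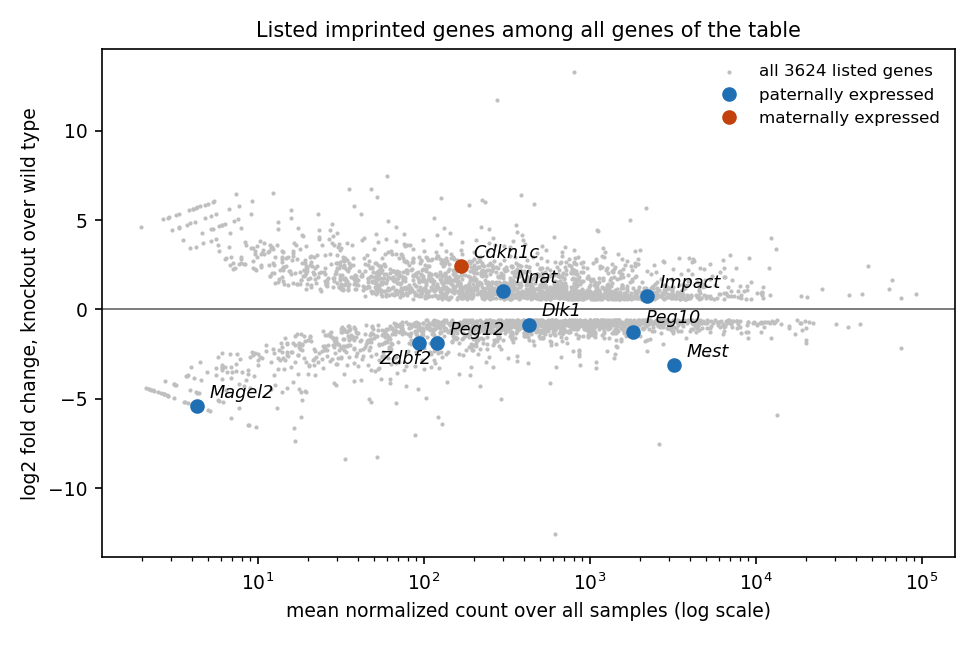
Log2 fold change of knockout over wild type (vertical axis) against mean normalized count over all samples (horizontal axis, log scale) for all 3624 genes of the authors' deposited table in grey, with the imprinted genes coloured by expressed allele. Mest, at a mean of 3223 counts, stands apart from most lower genes of its abundance, while Magel2, at 4.32 counts, lies at the low-count edge, and the other imprinted genes lie within the cloud.

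Members were not gathered in a single cluster. The 18 genes fall into 11 clusters, of which 8 had a listed gene and 1, the Prader-Willi one, had more than 1. The listed genes lie on 6 chromosomes, 3 of them on chromosome 7, and 0 lie on chromosome 5, where Spp1 itself is found. The knockout strain's name records that the targeted allele came from another inbred strain, and differences between the strains elsewhere in the genome cannot be told apart from genotype.

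Around the listed members, neighbouring genes moved in both directions. Within 500 kb, counted from start to start, 10 distinct other genes were listed, 5 higher and 5 lower. Dlk1, Impact and Nnat had 0 listed neighbours, among 2, 4 and 14 protein-coding genes in their windows. The overlapping Magel2 and Peg12 windows each held 2 listed of 4 protein-coding genes, including each other. The Cdkn1c window, the one with the most listed genes, held 6 of the 10 among its 19 protein-coding genes. Of all genes tested, 21.8% were listed. Slc22a18, a maternally expressed transporter gene 12.7 kb from Cdkn1c, had a log2 fold change of 1.49 (standard error 0.39, adjusted p = 9.95e-04) in the authors' deposited table. Kcnq1, a potassium channel gene of the same domain, had a log2 fold change of 3.70 (1.29, adjusted p = 0.0173) in the authors' deposited table, from an implied mean of only 0.664 to 8.64. The TNF receptor superfamily genes Tnfrsf26 and Tnfrsf23 were higher too, at 1.59 (0.29) and 0.71 (0.14) on the log2 scale of the authors' deposited table. In the opposite direction, Tssc4 fell by 0.99 (0.23) and Trpm5, a cation channel gene, fell by 1.86 (0.36) in the authors' deposited table. Of 9 maternally expressed genes gathered from this domain after the values were seen, 4 were listed, 3 higher (33.3%) and 1 lower (11.1%). The background was 12% higher and 9.81% lower, and a share gathered in this way cannot be weighed against it. Absent genes of the domain included Phlda2, which limits placental growth.

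The other windows held few listed genes. Near Mest, the carboxypeptidase gene Cpa4 fell by 1.78 (standard error 0.66, adjusted p = 0.0278) in the authors' deposited table, 1 of 13 protein-coding genes in the window. Near Zdbf2, Adam23, a cell adhesion gene of the nervous system, fell by 1.59 (0.17, adjusted p = 1.51e-19) in the authors' deposited table. It was 1 of 10 protein-coding genes in that window. Near Peg10, Casd1, a sialic acid acetyltransferase gene, rose by 0.69 (0.19, adjusted p = 0.00152) in the authors' deposited table while Peg10 fell. Casd1 was 1 of 5 protein-coding genes in its window.

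**Figure D4:**
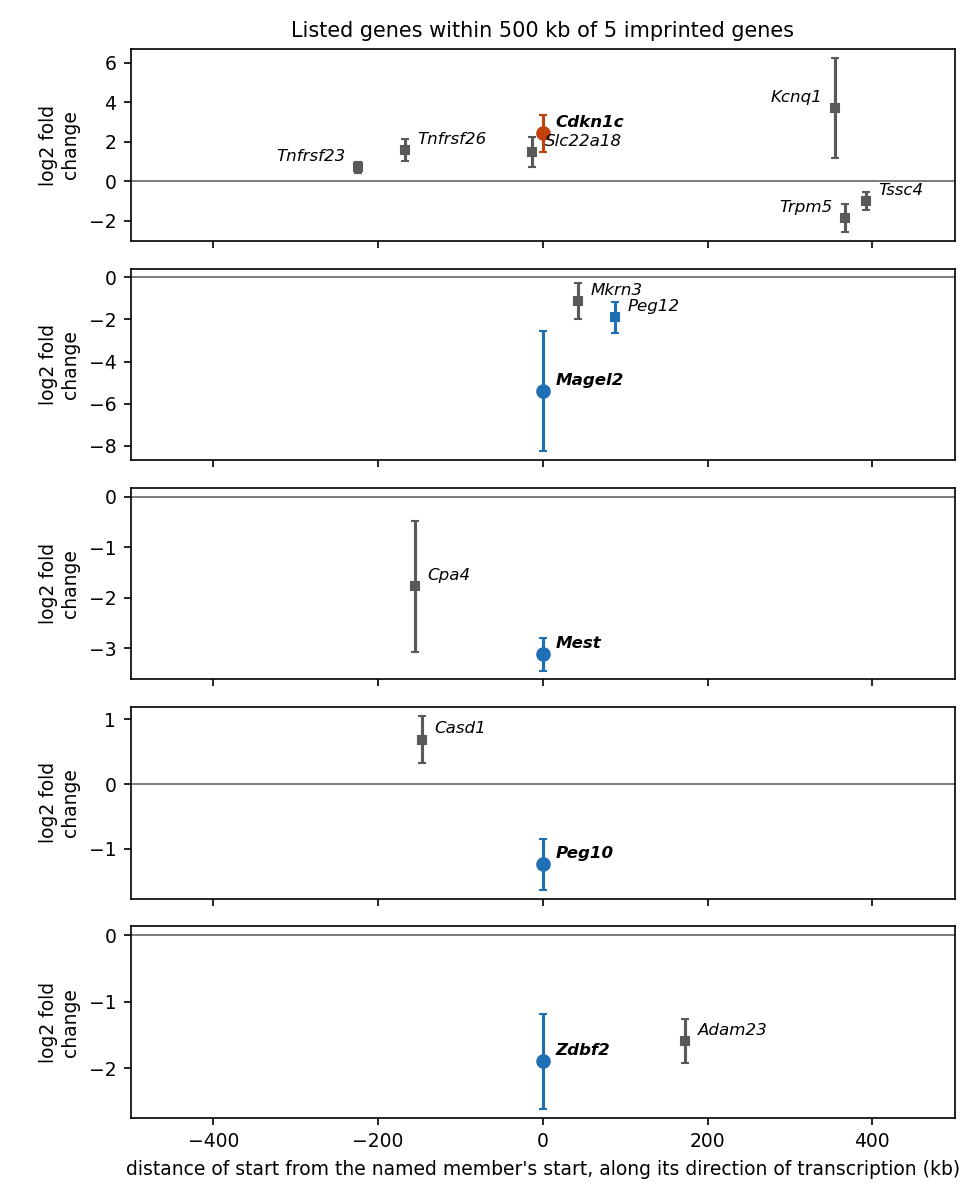
Log2 fold change of knockout over wild type with 95% intervals (vertical axes) against the distance in kb between gene starts (horizontal axis, positive in the direction in which the named member is transcribed), for listed genes within 500 kb of Cdkn1c, Magel2, Mest, Peg10 and Zdbf2. Circles are the named members, blue squares another member and grey squares other genes. The Magel2 panel holds lower genes only, while the Cdkn1c panel holds 4 higher and 2 lower neighbours.

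Imprinted genes that are not among the 18 were described by 2 further lists. Of 15 other paternally expressed genes 4 (26.7%) were listed, with Dio3, a thyroid hormone deiodinase gene, higher at 1.72 (standard error 0.45) and Snrpn, Nap1l5 and Mkrn3 lower in the authors' deposited table. Nap1l5, a nucleosome assembly protein-like gene, stood at -0.85 (0.27) in the authors' deposited table. Of 23 other maternally expressed genes 5 were listed, Slc22a18 and Kcnq1 higher and Tfpi2, Asb4 and Tssc4 lower. In the authors' deposited table Tfpi2, a protease inhibitor gene, stood at -2.75 (0.48) and Asb4 at -2.10 (0.61), and both lie in the wider Peg10 region. Pooled with the 18, 12 of 27 paternally expressed genes were listed, 9 lower and 3 higher, and 6 of 29 maternally expressed genes, 3 lower and 3 higher. These are 33.3% lower and 11.1% higher of the paternally expressed genes, and 10.3% in each direction of the maternally expressed genes, which is near the background of 9.81% lower and 12% higher. The 23 other maternally expressed genes alone, at 21.7% listed, were also near the background of 21.8%. Over all listed genes, 54.9% were higher, and the median log2 fold change was 0.66. Igf2, at the locus set apart here, rose by 3.38 (0.18) in the authors' deposited table, a paternally expressed gene that moved against the lower ones, and H19 was absent.

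Genes that work on imprints or with the members were counted from lists of their own. Of 20 genes of imprint maintenance and DNA methylation 3 were listed, or 15%, beside the background of 21.8%, and 20 genes are few. Of these, Uhrf1, which brings the maintenance methylase to replicated DNA, fell by 0.85 (standard error 0.13), Tet2, which oxidizes methylcytosine, rose by 0.74 (0.16), and the Polycomb gene Ezh1 rose by 1.02 (0.27) in the authors' deposited table. Dnmt1, Zfp57, Trim28 and Ctcf were absent. Beside the Cdkn1c rise, 4 of 19 other CDK inhibitors, cyclins and kinases of G1 and S phase were listed and all 4 were lower. They were the cyclin genes Ccnd1 (-0.82, standard error 0.10) and Ccna2 (-0.93, 0.14) and the inhibitor genes Cdkn2c (-0.67, 0.11) and Cdkn2d (-0.63, 0.20) in the authors' deposited table. The total listed, 21.1% of that list, is close to the 21.8% background. By direction, 21.1% were lower and 0% higher, beside 9.81% and 12% of all genes tested.

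Beside the Dlk1 fall, 8 of 20 Notch pathway genes (40%) were listed, against a background of 21.8%. Of the 20, 6 (30%) were lower and 2 (10%) higher, against 9.81% and 12%, and the median log2 fold change of the 8 was -0.90. Notch3, 1 of the 8, also counts among the pericyte and smooth muscle markers below. The target gene Heyl stood at -1.45 (standard error 0.31) and the receptor gene Notch3 at -0.65 (0.14), while the glycosyltransferase gene Mfng stood at 1.71 (0.38) and Rbpj, the DNA-binding factor of the pathway, at 0.73 (0.16) in the authors' deposited table. Of 17 other genes derived from retrotransposon gag sequences, the family of Peg10, 4 were listed, a share of 23.5% that is near the background. Rtl9 (2.30, standard error 0.64), Rtl5 (1.30, 0.50) and Zcchc12 (1.21, 0.30) were higher while Arc (-1.14, 0.34) was lower in the authors' deposited table. Sarcoglycan and dystrophin complex genes, the partners of Sgce, gave 2 higher and 2 lower of 15, or 26.7% listed. Among relatives of Plagl1, Phlda2 and the MAGE genes, Plagl2 rose by 1.37 (0.13) and Phlda3 fell by 0.93 (0.24) in the authors' deposited table, and the other 8 of 10 were absent.

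**Figure D5:**
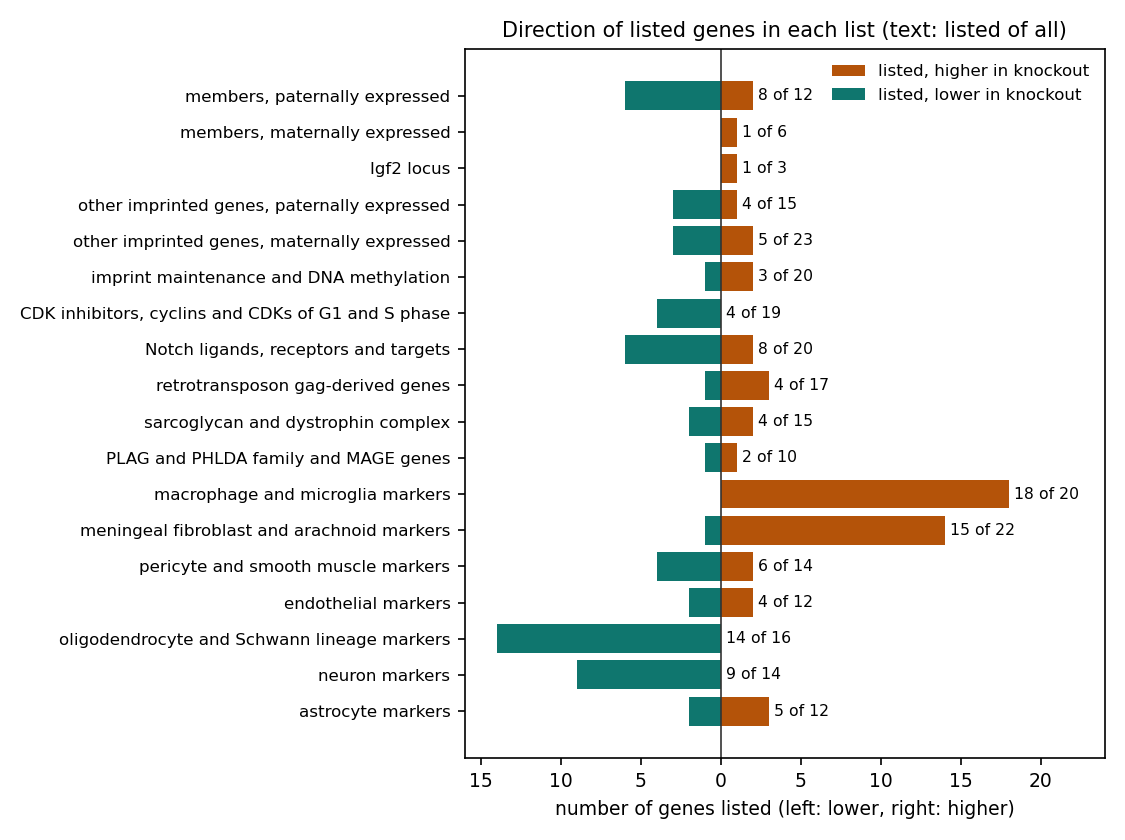
Number of listed genes per list that were higher (orange, to the right of 0) or lower (green, to the left) in the knockout, with the number listed of all genes in the list printed beside each bar. The bar of paternally expressed members shows 6 lower and 2 higher genes, and the macrophage list stands out with 18 of 20 listed, all higher.

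Markers of several cell types moved with the genotypes beside the imprinted genes. For comparison, 21.8% of all genes tested were listed, 12% as higher and 9.81% as lower. Macrophage and microglia markers were higher in 18 of 18 listed of 20, with an implied sum of 38998 normalized counts in wild type and 183431 in the knockout. Markers of meningeal fibroblasts and arachnoid cells were higher in 14 of 15 listed of 22, with an implied sum of 40718 and 91425. Oligodendrocyte and Schwann lineage markers were lower in 14 of 14 listed of 16 (29505 to 7574), and neuron markers in 9 of 9 listed of 14 (18904 to 8537). These sums cover listed genes only, and a single abundant transcript holds a large part of each, so they are not levels of the cell types. In wild type Col3a1 made up 31255 of the meningeal sum, Olig1 13482 of the oligodendrocyte sum and Thy1 12573 of the neuron sum. In the knockout Lyz2 made up 79440 of the macrophage sum. Endothelial markers gave 2 higher and 2 lower of 12, pericyte and smooth muscle markers 2 higher and 4 lower of 14, and astrocyte markers 3 higher and 2 lower of 12. Among the astrocyte markers, Fabp7 had the smallest adjusted p-value and was lower, at -1.23 (standard error 0.10), and Pax2 was lower at -0.98, while Gjb6 was higher at 4.28 (0.37) on the log2 scale of the authors' deposited table. The astrocyte filament gene Gfap had implied means of 58314 and 91923 and the water channel gene Aqp4 of 15585 and 34520 (wild type and knockout), while Slc1a3, Aldh1l1 and Sox9 were absent and could not be checked. The Y-linked genes Ddx3y, Eif2s3y, Uty and Kdm5d were higher in the knockout by at least 5.91 on the log2 scale in the authors' deposited table. The X-linked gene Xist was absent, and the labels give no sex. In bulk RNA, fewer cells of a type and less RNA per cell cannot be told apart, and the part of cell composition or sex in the changes of Mest, Cdkn1c and the other imprinted genes was not tested.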

How the data were processed

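RNA from 8 samples of cultured astrocytes, 4 wild type and 4 Spp1 knockout, was sequenced, and the file analysed is the authors' deposited table of 1 comparison with 0 per-sample columns. STAR 2.7, CASAVA 1.8, GRCm38 and DESeq2 1.30.1 are named, without roles, in the submitters' processing notes. For the annotation and the counting step, no name was found in the labels or the file header. Per the file headers, the authors gave a mean normalized count (a signal without a fixed unit), the log2 fold change and its standard error, a Wald statistic (a score), and raw and adjusted p-values. Neither the direction nor the filters are stated: the negative value of Spp1 set the reading as knockout over wild type, and the limits were read from the values.

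Computed here with Python 3.11.15, numpy 2.4.6, pandas 2.3.3 and scipy 1.17.1 were counts by direction, 95% normal intervals, implied group means assuming equal groups, the number of genes tested (median over the 20 smallest p-values above 0), distances in GENCODE vM21 and matches in RefSeq promoters. BLAST 2.17.0 found no transcript of another gene with at least 90% identity over 200 bases, other than the overlapping Copg2 and Gm44732. The planned count model could not be run without per-sample counts. The number of genes tested was checked on simulated p-values. The implied means were checked only as arithmetic on exact values, which says nothing of their error at low counts. Named were all members, their listed neighbours and up to 4 genes per list by adjusted p-value. Likeness of pattern between genes was not computed, since 1 comparison gives 1 value per gene. Members and the 16 lists were chosen with earlier results of these data known.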

Additional observations from a re-analysis of the deposited data

How the results depend on the processing

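With an adjusted p-value under 0.001, 5 paternally expressed genes were listed instead of 8, of which 0 instead of 2 were higher, so 1 of the 3 higher members (Cdkn1c) was left. At 1 or more in either direction on the log2 scale, 1 higher paternally expressed gene (Nnat) was left. The 6 lower paternally expressed genes became 5, 5 and 4 at those 2 limits and at a mean normalized count of at least 100. Listed maternally expressed genes numbered 1 at each of these limits. Leaving out Grb10, which neurons express from the paternal allele, could not change that number, because Grb10 was not listed. Taking the 200 smallest p-values gave 16633 tested genes. Subtracting the median of all listed genes, a constant that the fold-change limit shapes and that estimates no scaling error, brought Impact to 0.06 and Nnat to 0.36 on the log2 scale. The total listed stayed within 1.5 times for 9 of the 16 companion lists at that log2 limit and for 10 at that mean count; the others dropped by more. Reading the comparison in the opposite direction would reverse every sign. No paired analysis was possible because the file holds no per-sample values, and for the same reason no replicate could be left out. Depth is unknown, and Magel2, at a mean of 4.32 normalized counts, is the member whose value is least certain.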
